A study of Mus musculus with 9 samples.

Results

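The collagen genes of the mouse were read in lumbar dorsal root ganglia of mice with an induced knock-out of the transcription factor gene Prdm12 and of controls. All protein-coding genes whose symbol is Col, digits, a and digits were taken, from Col1a1 to Col28a1, and their Ensembl identifiers were looked up in the 9 tables of gene counts. This gave 44 genes of 27 collagen types among 55536 gene identifiers, of which 22028 are protein coding, and all 44 were found. They were grouped by the kind of assembly their chains build, into 11 fibrillar, 6 basement membrane and 27 other collagens. The symbol Col4a3bp, which has further letters, was left out.

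The study sequenced messenger RNA from whole lumbar ganglia of adult C57Bl6 mice, at 1 month after tamoxifen. One group of 5 libraries, called icKO here, carries the genotype label Prdm12 inducible conditional knock-out, and the other group of 4 libraries is labelled wild type and called control. The sources used here name neither the promoter that drives the recombinase, nor the sex of the mice, nor any engineered allele in the controls, so whatever else differs between the genotypes cannot be told apart from the loss of Prdm12. The labels do not say that libraries of 1 group came from separate animals or pools, so p-values measure only how far these libraries spread, and that spread may be technical.

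Collagens are extracellular proteins made of 3 chains wound into a triple helix. Fibrillar collagens form the rope-like fibrils of connective tissue, type IV collagens form the sheet-like networks of basement membranes, and the remaining types decorate fibrils, anchor basement membranes, span the cell surface or form finer meshes. In a sensory ganglion, fibroblasts of the capsule and of the connective tissue around the nerve fibres are a main source of types I and III. Schwann cells, satellite glia and vessels lie on basement membranes that contain type IV. Because whole ganglia were sequenced, fewer cells of a type and less RNA per cell cannot be told apart in any of the values given here.

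Library totals ran from 19607740 to 29481589 counts, and the collagens took 0.115% to 0.187% of them. Prdm12, the gene targeted in the icKO mice, was at 22.3 to 26.2 counts per 1000000 (CPM) in the icKO libraries and at 116 to 163 CPM in the control libraries (log2 fold change -2.48, adjusted p = 2.51e-08 by the quasi-likelihood test of edgeR, adjusted after Benjamini and Hochberg over all tested genes). The defining genes of sensory neurons were present in every library, with Avil, a marker of peripheral sensory neurons, at 1051 ± 82.0 CPM in control (SD, n = 4) and 1071 ± 54.2 CPM in icKO (SD, n = 5). Avil is 1 of 13 such markers, of which 9 had a negative and 4 a positive log2 fold change. Summed, the 13 were at 17414 to 20794 CPM in control and at 15092 to 18887 CPM in icKO. Libraries differed within their group in ways that touch the collagens. The 4 Y-linked genes summed to 98.1 to 165 CPM in control 1, control 3, icKO 1 and icKO 2 and to 0.104 to 3.58 CPM in the other 5, so both groups held libraries of both kinds. Control 3 also had the most RNA of the bone genes Bglap, at 4.26 CPM against at most 0.135 CPM elsewhere, and Ibsp, at 18.2 CPM against 4.65 to 7.31 CPM elsewhere. No tested marker of endothelial and mural cells (13 genes), Schwann cells (10), satellite glia (8), macrophages (8), skeletal muscle (6) or spinal cord (3) passed the adjusted threshold of edgeR or of DESeq2. At an unadjusted p under 0.05, 1 gene was higher for endothelial and mural cells (7.69%) and for macrophages (12.5%), beside 4.85% of all tested genes. Likewise 1 gene was lower for satellite glia (12.5%), skeletal muscle (16.7%) and spinal cord (33.3%), beside 6.26% of all tested genes. For Schwann cells there was none. All 6 skeletal muscle genes had a negative log2 fold change, with a median of -1.01. Skeletal muscle genes summed to 51.2 CPM in control 2, 31.5 CPM in icKO 1 and 4.11 to 14.2 CPM elsewhere.

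Collagen messages of control ganglia came mostly from fibrillar types. Fibrillar collagens held 56.2% of the summed collagen CPM in control, other collagens 34.3% and basement membrane collagens 9.57%, and the 5 most abundant genes together held 46.8%. In control, 26 of the 44 genes reached 10 CPM and 7 stayed under 1 CPM on average. Levels of different genes were compared per kilobase of the longest coding transcript, because a long transcript collects more reads. On that scale Col1a2, which encodes a chain of type I collagen, was highest in control at 31.8 ± 9.43 CPM per kilobase (SD, n = 4). Col5a3, a chain of type V, stood at 27.8 ± 5.12 and Col3a1, the only chain of type III, at 26 ± 8.49 CPM per kilobase. These levels lie within each other's spread, so the order of the first 3 is not settled by these libraries. Col16a1 followed at 20.1 ± 1.53, Col28a1 at 18 ± 0.932 and Col1a1, the other chain of type I, at 14.8 ± 6.23 CPM per kilobase. With the length of all exons joined in place of the longest transcript, Col5a3, Col16a1 and Col28a1 came first, and Col1a2 was placed at rank 5.

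**Figure D1:**
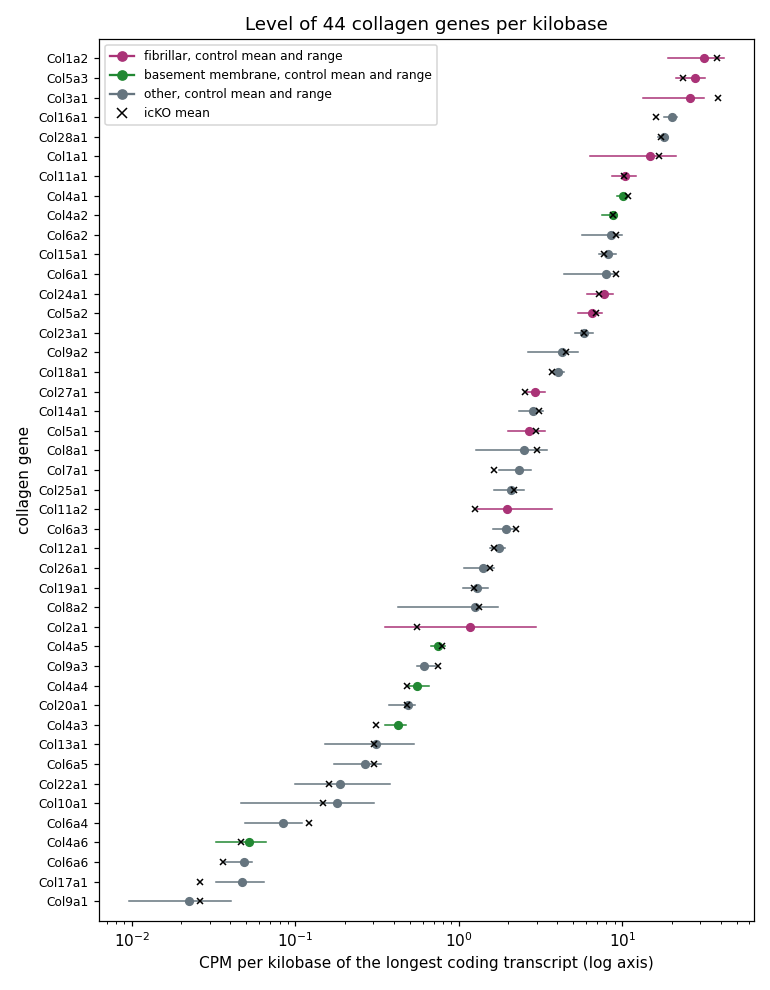
Level of each of the 44 collagen genes on a log axis, in CPM per kilobase of the longest coding transcript. Points are control means coloured by class, lines run from the lowest to the highest of the 4 control libraries and crosses are icKO means. Levels span from Col1a2 at 31.8 to Col9a1 at 0.022 in control, and most crosses lie on or near the control line.

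The comparison of icKO with control asked whether collagen messages changed after Prdm12 was lost. Of 41 collagens with enough counts to test, Col16a1 was lower in icKO and none was higher, at a Benjamini-Hochberg adjusted p under 0.05 in the edgeR quasi-likelihood test over 17258 genes. That is 2.44% of the tested collagens, beside 0.852% of all tested genes called in either direction, 0.377% called lower and 0.475% called higher. At an unadjusted p under 0.05, 5 collagens were lower and none was higher, namely Col16a1, Col7a1, Col4a3, Col11a2 and Col2a1. This is 12.2% of the tested collagens, beside 11.1% of all tested genes at that level, 6.26% lower and 4.85% higher. In Col16a1 and Col4a3 every icKO library lay below every control library, 4.88% of the tested collagens against 2.34% of all tested genes. In no collagen did every icKO library lie above every control library, against 2.16% of all tested genes, and 4.5% of all tested genes had no overlap in either direction. Counts as small as these only describe the list.

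The signs of the collagen fold changes were evenly split. The log2 fold change was above 0 for 21 of the 41 and below 0 for 20, beside 49.8% of all tested genes above 0, with a median of 0.00023, beside -0.00076 over all tested genes. Values ran from -1.09 for Col2a1 to 0.57 for Col3a1. The median was -0.014 for the 11 fibrillar collagens, 0.00023 for the 5 tested basement membrane collagens and 0.0055 for the 25 tested other collagens. Col4a6, Col9a1 and Col17a1 had too few counts to test, with at most 13, 5 and 7 counts in any library.

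**Figure D2:**
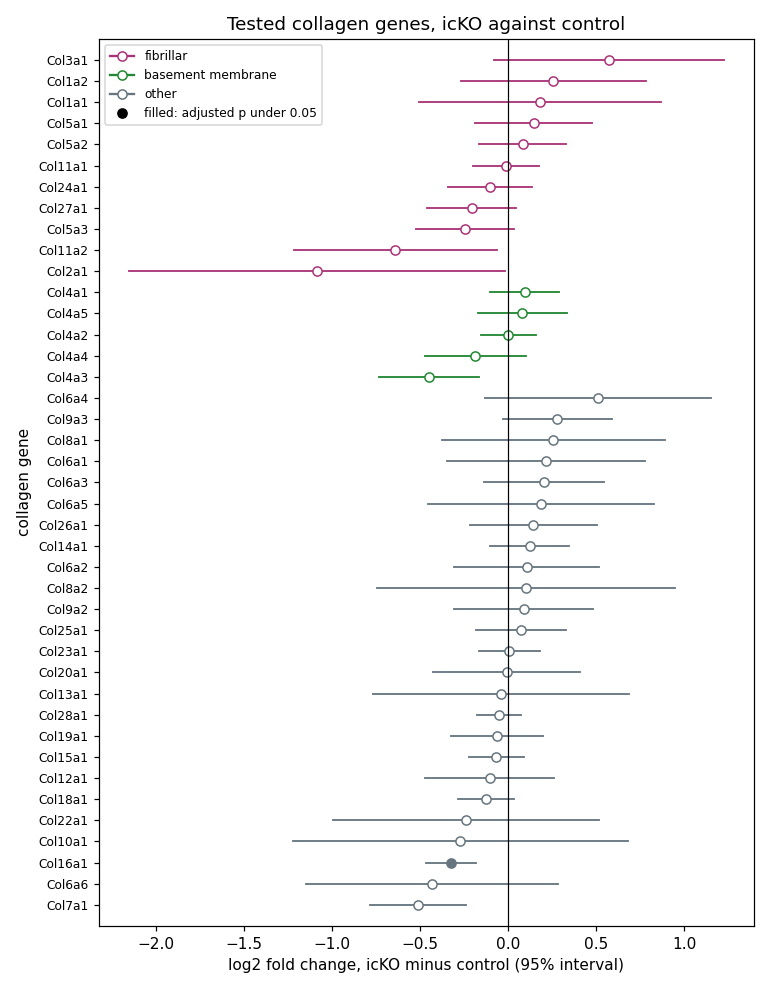
Log2 fold change of icKO minus control for the 41 tested collagens, grouped and coloured by class, with 95% intervals. The filled point marks Col16a1, the gene with an adjusted p under 0.05, and the interval crosses 0 for all but Col16a1, Col7a1, Col4a3, Col11a2 and Col2a1.

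Col16a1 encodes type XVI collagen, a fibril-associated collagen with interrupted triple helices (FACIT) that sits on the surface of fibrils and near basement membranes. The gene (ENSMUSG00000040690) lies on the plus strand of chromosome 4, from 130047840 to 130099283 in GRCm38. It was at 105, 109, 112 and 93.5 CPM in control libraries 1 to 4. In icKO libraries 1 to 5 it was at 84.5, 90.5, 79.6, 77.8 and 85.8 CPM. The 5 icKO libraries all lay below the lowest control library, control 4. Means were 105 ± 7.99 CPM in control (SD, n = 4) and 83.6 ± 5.08 CPM in icKO (SD, n = 5), a fall of 20.2% (log2 fold change -0.33, SE 0.0648, 95% interval -0.47 to -0.19, adjusted p = 0.0368, edgeR quasi-likelihood test, Benjamini-Hochberg). Because no icKO library reached the lowest control library, the same order had to hold within any subset. Splitting the set by Y-linked counts into 4 and 5 therefore gave no separate test of the Col16a1 order.

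The call for Col16a1 rests on the whole set of libraries. Its adjusted p stayed under 0.05 without icKO 2 or without control 4 and rose above it without any other single library (edgeR quasi-likelihood test). It was 0.0709 without control 2, 0.0842 without control 1 and 0.143 when control 3 was left out. Leaving out icKO 5 gave 0.0893, leaving out icKO 4 gave 0.0906, leaving out icKO 1 gave 0.0969 and leaving out icKO 3 gave 0.108. It was 0.237 without both control 3 and icKO 4, a choice made after the data were seen. Over the single libraries the log2 fold change kept its sign, between -0.38 and -0.28. Of 13 markers of sensory neurons, 9 had a negative and 4 a positive log2 fold change, and 4 were lower at an unadjusted p under 0.05 (30.8%, beside 6.26% of all tested genes) and none was higher. The 13 summed to 17414 to 20794 CPM in control and to 15092 to 18887 CPM in icKO, and the part of this in the Col16a1 result was not tested.

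None of the other 7 tested FACIT collagens passed the threshold, the lowest adjusted p being 0.522 for Col9a3 (edgeR quasi-likelihood test). Summed over all 9 FACIT genes, icKO libraries were at 141 to 154 CPM and control libraries at 155 to 180 CPM, without overlap. Without Col16a1 the other 8 summed to 50.6 to 69.2 CPM in icKO and 49.6 to 68.3 CPM in control, and the ranges coincided. This subclass was singled out after its values were seen. Col9a3, a chain of the cartilage collagen IX, had the most positive log2 fold change of the group at 0.28 (SE 0.14). Its values rest on 43 to 72 counts a library, and 6.07% of its exon bases are shared with Tcfl5 on the opposite strand. Whether counting used the strand is not given. Col12a1 and Col14a1, which bind fibrils in tendon and skin, were at -0.11 and 0.12.

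Col7a1 was the collagen nearest to Col16a1 in the strength of its evidence. It encodes type VII collagen, the anchoring fibril that ties basement membranes to the tissue beneath, and it lies on the plus strand of chromosome 9, from 108953586 to 108984875 in GRCm38. It was at 25.2, 25.6, 19.3 and 16.2 CPM in control libraries 1 to 4 and 15.8, 16.9, 13.7, 14.4 and 14.8 CPM in icKO libraries 1 to 5. Control 1 and control 2 were highest, the 5 icKO libraries lay close together, and control 4 fell inside their range. Means were 21.6 ± 4.59 CPM in control (SD, n = 4) and 15.1 ± 1.25 CPM in icKO (SD, n = 5) (log2 fold change -0.51, SE 0.13, adjusted p = 0.0863, edgeR quasi-likelihood test, Benjamini-Hochberg). The adjusted p was 0.0199 without control 4 in the same test and above 0.05 without each of the other 8 libraries, up to 0.223 without control 1. It was 0.00981 with no low-count filter and 0.00828 by DESeq2, and above 0.05 with the other scalings, the 1 CPM filter and the Y-linked covariate.

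Upstream sequence is given for 4 collagens, Col16a1 and Col7a1 because they had the smallest p-values, and Col5a3 and Col3a1 because they were the abundant fibrillar genes with the most negative and most positive fold changes. The stretches are the 250 bases before the RefSeq start of each gene in GRCm38.p6, 5′ to 3′ on the gene's strand, and capitals mark the CCAAT box, the GC box letters GGGCGG and the TATA box letters TATAAA. Both strands were searched, a match on the opposite strand stands as its reverse complement, and overlaps between motifs were allowed. They lie at chr4:130047590-130047839 on the plus strand for Col16a1, chr9:108953336-108953585 on the plus strand for Col7a1, chr9:20815068-20815317 on the minus strand for Col5a3 and chr1:45311288-45311537 on the plus strand for Col3a1. The Col16a1 stretch also overlaps an exon of the antisense gene Gm12963.
Col16a1: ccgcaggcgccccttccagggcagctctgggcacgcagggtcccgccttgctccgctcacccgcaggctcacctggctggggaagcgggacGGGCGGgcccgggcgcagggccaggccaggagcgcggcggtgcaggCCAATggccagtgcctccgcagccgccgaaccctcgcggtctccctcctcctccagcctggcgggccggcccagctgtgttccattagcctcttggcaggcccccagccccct
Col7a1: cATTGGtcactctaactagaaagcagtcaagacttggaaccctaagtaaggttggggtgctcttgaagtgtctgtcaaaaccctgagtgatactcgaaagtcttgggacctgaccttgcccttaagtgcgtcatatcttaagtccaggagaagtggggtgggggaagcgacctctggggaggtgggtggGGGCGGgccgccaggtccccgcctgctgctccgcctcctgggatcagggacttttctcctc
Col5a3: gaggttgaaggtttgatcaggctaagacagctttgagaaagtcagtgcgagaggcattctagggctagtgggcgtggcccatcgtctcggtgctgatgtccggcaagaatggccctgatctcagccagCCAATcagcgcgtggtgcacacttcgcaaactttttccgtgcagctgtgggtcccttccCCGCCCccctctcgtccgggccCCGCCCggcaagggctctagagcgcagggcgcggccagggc
Col3a1: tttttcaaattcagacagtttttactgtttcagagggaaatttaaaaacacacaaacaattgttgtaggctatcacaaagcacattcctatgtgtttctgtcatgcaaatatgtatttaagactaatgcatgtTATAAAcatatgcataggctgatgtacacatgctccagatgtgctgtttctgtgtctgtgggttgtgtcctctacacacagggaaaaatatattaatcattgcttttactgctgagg
Col16a1 and Col7a1 each held 1 CCAAT box and 1 GC box, Col5a3 held 1 CCAAT box and 2 GC boxes, and Col3a1 held 1 TATA box and neither of the others. The base composition differed too, with G and C making up 75.6% of the Col16a1 stretch and 35.2% of the Col3a1 stretch. The 35 collagens with an entry in the RefSeq table had 38 such stretches. Of these 38, 13 held the CCAAT box, 22 the GC box and 5 the TATA box. Over all 32817 promoters of the same length, 33.8% held the CCAAT box, 32.7% the GC box and 12.4% the TATA box. The matches describe the letters only.

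**Figure D3:**
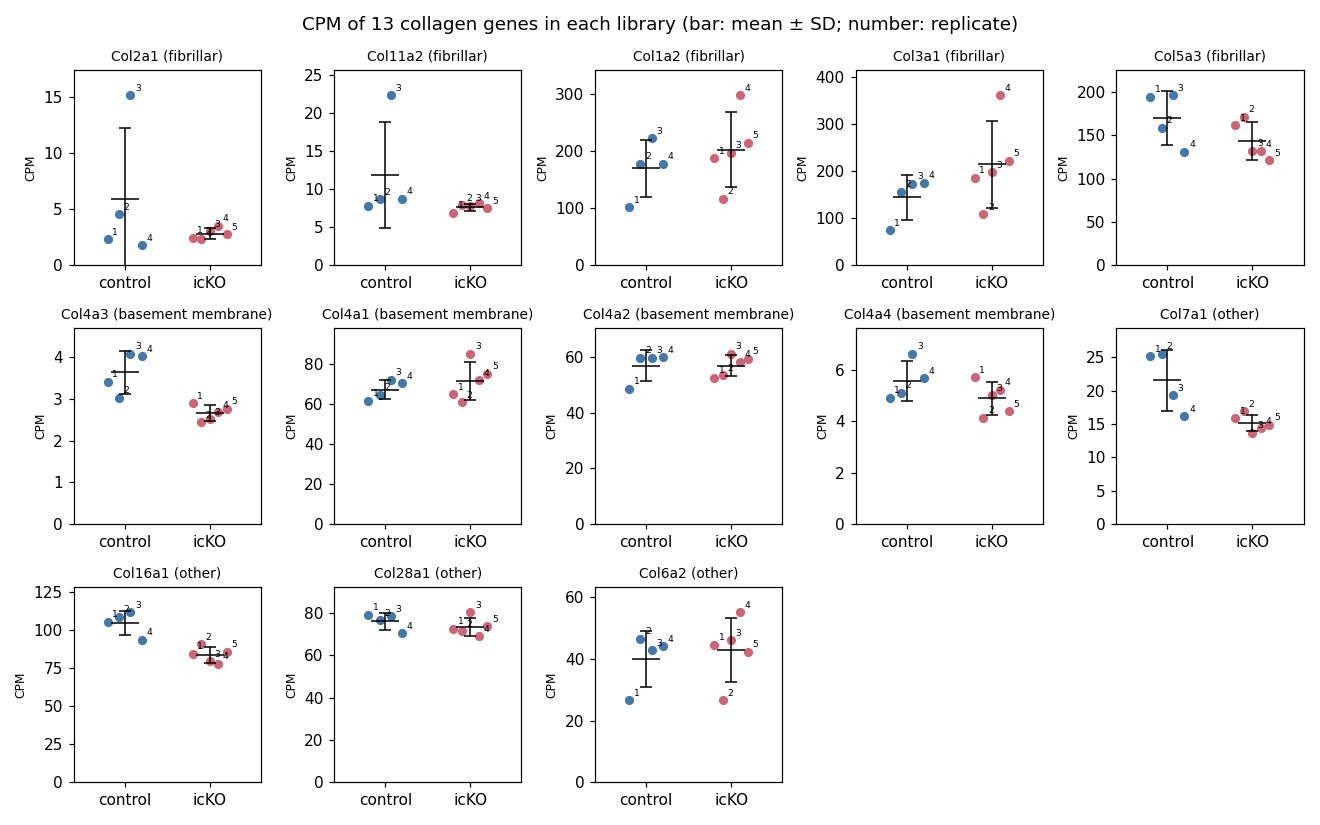
CPM of 13 collagens in each library, control in blue and icKO in red, on axes that start at 0. Bars give the mean ± SD over 4 control or 5 icKO libraries and numbers give the replicate, and the lower end of the Col2a1 control bar is cut by the axis at 0. Groups separate for Col16a1 and Col4a3, a single high library (control 3) stands out for Col2a1 and Col11a2, and control 1 and icKO 2 are the lowest for Col3a1 and Col6a2.

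Among the 11 fibrillar collagens none passed the adjusted threshold of the edgeR quasi-likelihood test or of DESeq2, and the interstitial types I and III had positive fold changes. At an unadjusted p under 0.05, 2 of the 11 were lower, which is 18.2% beside 6.26% of all tested genes. Col1a2 was at 102, 178, 223 and 178 CPM in control libraries 1 to 4 and 188, 117, 198, 299 and 215 CPM in icKO libraries 1 to 5. The icKO 4 library was highest and control 1 lowest, and the groups overlapped widely. Means were 170.2 ± 50.4 CPM in control (SD, n = 4) and 203 ± 65.2 CPM in icKO (SD, n = 5) (log2 fold change 0.25, 95% interval -0.27 to 0.78, adjusted p = 0.784, edgeR quasi-likelihood test, Benjamini-Hochberg). Without icKO 4 the log2 fold change of Col1a2 was 0.075 and without control 1 it was 0.070, while it was 0.40 without icKO 2 and 0.42 without control 3. Col3a1 was at 74.7, 156, 173 and 175 CPM in control libraries 1 to 4 and 185, 108, 197, 360.5 and 221 CPM in icKO libraries 1 to 5. Again icKO 4 was highest and control 1 lowest, and icKO 2 fell inside the control range. The Col3a1 means were 144 ± 47.3 CPM in control (SD, n = 4) and 214 ± 91.9 CPM in icKO (SD, n = 5) (log2 fold change 0.57, 95% interval -0.08 to 1.22, adjusted p = 0.533, edgeR quasi-likelihood test). The Col3a1 log2 fold change was 0.30 without icKO 4 and 0.35 without control 1. Col1a1 had a log2 fold change of 0.18 and ran from 37.6 CPM in control 1 to 144 CPM in icKO 4.

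Fold changes of the type V chains differed in sign, and none passed the threshold. Type V collagen is incorporated into type I fibrils and sets their diameter. Col5a3 was at 195, 158, 196 and 131 CPM in control libraries 1 to 4 and 161, 171, 132, 132 and 121 CPM in icKO libraries 1 to 5. Control 1 and control 3 were highest, and control 2 and control 4 fell among the icKO libraries. The log2 fold change of Col5a3 was -0.25 (SE 0.13, adjusted p = 0.533, edgeR quasi-likelihood test, Benjamini-Hochberg), against 0.14 for Col5a1 and 0.08 for Col5a2. The Col5a3 value was -0.16 without control 3. Per kilobase, Col5a3 was 5.88 to 15.9 times the level of Col5a1 in the 9 libraries, with the highest ratio in control 1. Col24a1 and Col27a1, fibrillar collagens with a shorter triple helix, were at -0.10 and -0.21.

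The scarce cartilage chains Col2a1 and Col11a2 owed most of their difference to 1 library, control 3. Type II is the main fibrillar collagen of cartilage, and Col11a2 encodes a chain of type XI that joins its fibrils. Col2a1 was at 2.31, 4.53, 15.1 and 1.8 CPM in control libraries 1 to 4 and 2.46, 2.36, 3.03, 3.54 and 2.76 CPM in icKO libraries 1 to 5. Only control 3 was far above the rest, and the other 3 control libraries spanned the icKO values. Col11a2 was at 7.81, 8.66, 22.3 and 8.71 CPM in control libraries 1 to 4 and 6.93, 7.86, 7.8, 8.14 and 7.46 CPM in icKO libraries 1 to 5. Here too control 3 stood alone, and the other 8 libraries lay between 6.93 and 8.71 CPM. The log2 fold changes of -1.09 and -0.64 over all libraries (adjusted p = 0.436 and 0.378, edgeR quasi-likelihood test, Benjamini-Hochberg) became -0.028 and -0.12 without control 3. Control 3 was also highest for the bone genes given above and for Comp and Acan, matrix genes of cartilage. These were picked from a list of 8 markers after their values were seen. Of the 8 cartilage and bone markers 6 were tested and 2 were lower in icKO at an unadjusted p under 0.05 (33.3%, beside 6.26% of all tested genes). Among the 6 tested, 4 had a negative and 2 a positive log2 fold change, with a median of -0.17. Bglap reached 4.26 CPM in control 3 alone, and Matn1 was at 0 in 8 of 9 libraries. The 8 summed to 97.3 CPM in control 3, to 68.6 to 80.3 CPM in the other controls and to 67.3 to 75.4 CPM in icKO, and their part in the result was not tested. Col11a1, the other chain of type XI and far more abundant, showed no such excess, with 93.4 CPM in control 3, 66.5 to 86.6 CPM in the other controls and 76.6 to 81.4 CPM in icKO.

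Of the 3 classes the basement membrane collagens varied least among the control libraries by their median. Type IV genes lie in head-to-head pairs, and the pairs encode chains that assemble together or alternate. Col4a1 and Col4a2, the pair found in nearly all basement membranes, overlap by 22 bases at their starts on chromosome 8. Col4a1 was at 61.7, 64.6, 72.1 and 70.5 CPM in control libraries 1 to 4 and 65, 61, 85.3, 72 and 75.1 CPM in icKO libraries 1 to 5. Library icKO 3 was highest and the groups overlapped. Col4a2 was at 48.5, 59.6, 59.6 and 59.8 CPM in control libraries 1 to 4 and 52.4, 53.3, 61.1, 58.2 and 59.3 CPM in icKO libraries 1 to 5. Control 1 lay below all other libraries, and the remaining values differed little. Log2 fold changes were 0.09 for Col4a1 (95% interval -0.10 to 0.29) and 0.00023 for Col4a2 (95% interval -0.16 to 0.16). Per kilobase, Col4a1 ran at 1.06 to 1.36 times Col4a2 in every library, 1.16 ± 0.0768 in control (SD, n = 4) and 1.23 ± 0.0882 in icKO (SD, n = 5).

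Col4a3 and Col4a4, the pair known from the basement membrane of the kidney glomerulus, were far scarcer. Their starts are 71 bases apart on chromosome 1, where Col4a4 ends at 82586849 and Col4a3 begins at 82586921 in GRCm38. Col4a3 was at 3.41, 3.02, 4.08 and 4.02 CPM in control libraries 1 to 4 and 2.89, 2.44, 2.51, 2.67 and 2.76 CPM in icKO libraries 1 to 5. Every icKO library lay below every control library. Means were 3.63 ± 0.508 CPM in control (SD, n = 4) and 2.66 ± 0.185 CPM in icKO (SD, n = 5) (log2 fold change -0.45, SE 0.13, adjusted p = 0.165, edgeR quasi-likelihood test, Benjamini-Hochberg), which did not pass the threshold. These values rest on 63 to 112 counts a library, and 5.65% of the exon bases are shared with C430014B12Rik on the opposite strand, whose reads could not be told apart because it is not given whether counting used the strand. Col4a4 was at 4.91, 5.1, 6.63 and 5.67 CPM in control libraries 1 to 4 and 5.72, 4.14, 5.01, 5.22 and 4.38 CPM in icKO libraries 1 to 5. Control 3 and icKO 1 were highest and the groups overlapped. The Col4a4 log2 fold change was -0.19 (adjusted p = 0.681, edgeR quasi-likelihood test), and -0.080 without control 3. Per kilobase, Col4a3 ran at 0.771 ± 0.0681 of Col4a4 in control (SD, n = 4) and 0.647 ± 0.0696 in icKO (SD, n = 5), and the ranges overlapped. On the X chromosome Col4a5 was at 4.44 to 6.09 CPM over all libraries, and its partner Col4a6 never passed 13 counts.

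Type VI collagen forms beaded microfilaments around cells and basement membranes. Its 3 classical chains Col6a1, Col6a2 and Col6a3 had log2 fold changes of 0.21, 0.10 and 0.20, the lowest adjusted p being 0.720 (edgeR quasi-likelihood test). Col6a2, the most abundant of them in CPM, was at 26.5, 46.4, 42.7 and 44 CPM in control libraries 1 to 4 and 44.6, 26.5, 46, 55 and 42.1 CPM in icKO libraries 1 to 5. Control 1 and icKO 2 were equally low, and the other 7 libraries lay between 42.1 and 55.0 CPM. The same libraries were lowest for Col6a1, at 17.96 and 18.52 CPM, and for Col6a3, at 16.3 and 15.1 CPM. Col6a4, Col6a5 and Col6a6 were scarce, at 0.618, 2.46 and 0.426 CPM on average in control. Types VIII and X form short-chain networks, and Col8a1 and Col8a2, found in vessel walls and Descemet's membrane, had their lowest values in the same pair of libraries, at 6.52 and 9.34 CPM for Col8a1 and at 1.83 and 1.98 CPM for Col8a2. Col10a1, the collagen of hypertrophic cartilage, stayed between 0.146 and 0.953 CPM.

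Several collagens had fold changes near 0. Col28a1, which encodes a type VI-like collagen known from the surroundings of Schwann cells in peripheral nerve, was at 79, 76.5, 78.5 and 70.4 CPM in control libraries 1 to 4 and 72.4, 71.3, 80.3, 68.9 and 73.6 CPM in icKO libraries 1 to 5. The groups overlapped and no library stood apart. Its log2 fold change was -0.05 with a 95% interval of -0.18 to 0.07, whose lower end lies above the log2 fold change of Col16a1. The multiplexins Col15a1 and Col18a1, which carry glycosaminoglycan chains and sit in basement membrane zones, had log2 fold changes of -0.07 and -0.13. The transmembrane collagens Col23a1 and Col25a1 were at 0.01 and 0.07, Col13a1 was at -0.04, and Col17a1 of hemidesmosomes had at most 7 counts. Col26a1, a short collagen grouped here with the anchoring types, was at 0.14.

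Fibrillar collagens varied more among control libraries than most genes did. In control the coefficient of variation of CPM had a median of 20.5% over the fibrillar, 9.82% over the tested basement membrane and 16.5% over the tested other collagens, beside 9.7% over the 14941 tested genes of at least 1 CPM. It was lowest for Col28a1 at 5.18% and highest for Col2a1 at 105%. Control 1 gave the lowest value of 9 libraries for 19 of 41 collagens, 6 of them fibrillar, and icKO 2 for 7. Control 3 gave the highest for 12, 6 of them fibrillar, and icKO 4 for 11, with the other 5 fibrillar ones.

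**Figure D4:**
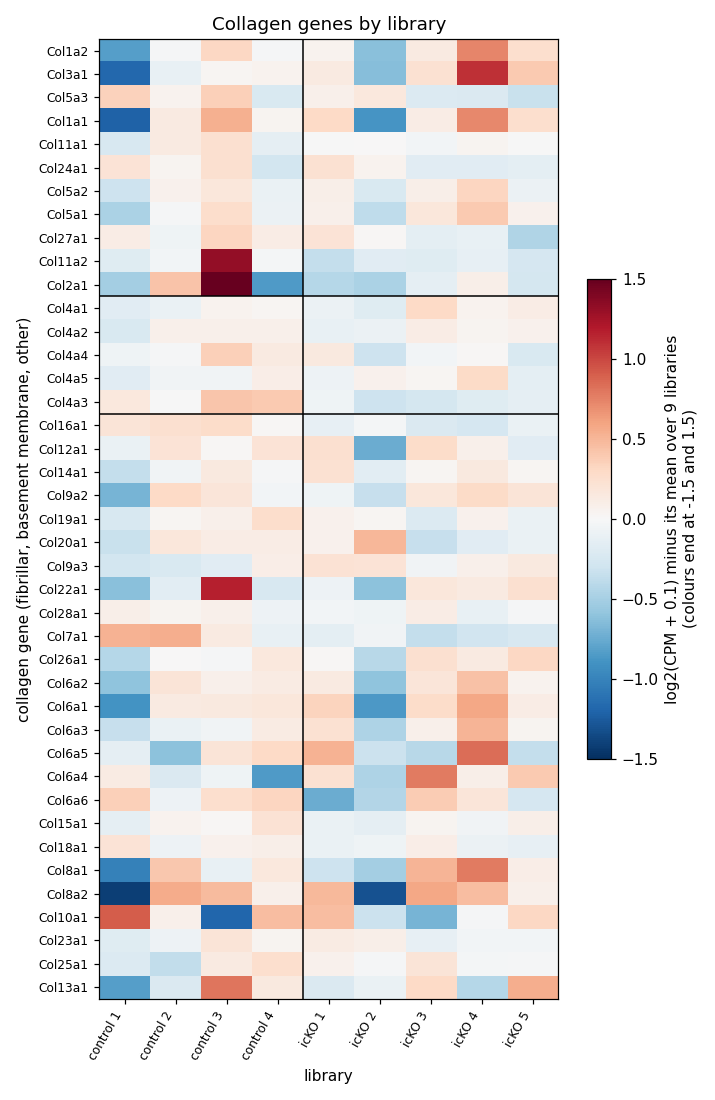
Deviation of log2(CPM + 0.1) from its mean over 9 libraries for the 41 tested collagens, control libraries left and icKO libraries right of the vertical line, with horizontal lines between fibrillar, basement membrane and other collagens. Control 1 and icKO 2 are blue and icKO 4 is red for Col1a1, Col1a2, Col3a1, Col6a1, Col6a2 and Col6a3, and control 3 is dark red for Col2a1, Col11a2 and Col22a1.

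Summed over the class, fibrillar collagens were at 620.4, 831, 1016 and 784 CPM in control libraries 1 to 4 and 886, 664, 847, 1179 and 878 CPM in icKO libraries 1 to 5. Values of icKO 4 and control 3 were highest, control 1 and icKO 2 lowest, and the groups overlapped. Basement membrane collagens summed to 123 to 147 CPM in control and 126 to 159 CPM in icKO. Other collagens summed to 440 to 524 CPM in control and 414 to 511 CPM in icKO. The 15 fibroblast and meningeal markers, a list without collagens, summed to 1496, 3275, 2576 and 2642 CPM in control libraries 1 to 4 and 2886, 1967, 3071, 3683 and 2403 CPM in icKO libraries 1 to 5. Control 1 and icKO 2 were lowest here as well, and icKO 4 was highest. All 15 had a positive log2 fold change, beside 49.8% of all tested genes, with a median of 0.31. An unadjusted p under 0.05 was found for 3 of them, all higher (20%, beside 4.85% of all tested genes), and none passed the adjusted threshold of the edgeR quasi-likelihood test or of DESeq2. Their part in the positive values of Col1a1, Col1a2 and Col3a1 was not tested.

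**Figure D5:**
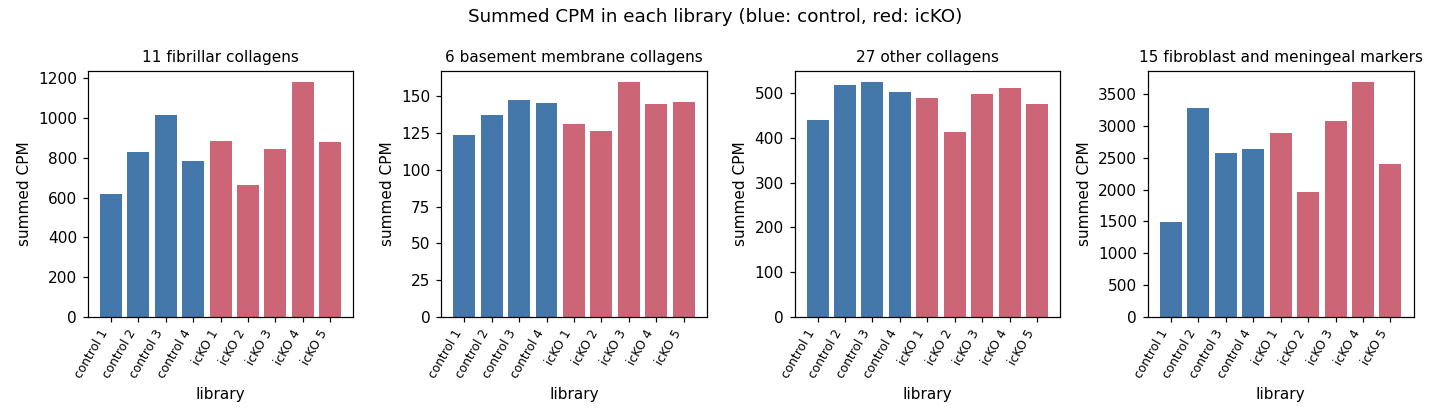
Summed CPM of the 3 collagen classes and of 15 fibroblast and meningeal markers in each library, with bars from 0, control in blue and icKO in red. Fibrillar collagens and the markers are both lowest in control 1 and icKO 2 and highest in icKO 4, while basement membrane collagens vary less.

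Some collagens also varied with the Y-linked counts, of which 4 libraries had many and 5 few, in both groups. Col5a3 was at 161 to 196 CPM in the high and 121 to 158 CPM in the low libraries. The nearest values of the 2 sets were 161 CPM in icKO 1 and 158 CPM in control 2. How many of all tested genes had no overlap in this split was not counted. In a fit with both terms Col5a3 differed by 0.40, high minus low, on the log2 scale (SE 0.0638, adjusted p = 0.0468, edgeR quasi-likelihood test), 1 of 16 genes called of 17258, or 0.0927%. Without single libraries the log2 difference stayed between 0.35 and 0.44, and the adjusted p was 0.0205 without control 2 and 0.0778 to 0.317 without each other library. Without control 3 and icKO 4 it was 0.156. At an unadjusted p under 0.05, 10 of the 41 collagens differed between the high and low libraries, beside 7.57% of all tested genes, with Col24a1 higher by 0.32 and Col8a1 lower, at -0.85, in the high ones. Col5a3 and Col27a1 were higher too, and Col3a1, Col4a2, Col6a2, Col9a2, Col15a1 and Col26a1 were lower. The high libraries include control 1 and icKO 2, lowest in summed fibrillar collagens (620 and 664 CPM), besides icKO 1 (886 CPM) and control 3 (1016 CPM). The part of this in these differences was not tested. The effect of icKO on collagens differed between the high and low libraries for none of the 41 at an adjusted p under 0.05 in the edgeR quasi-likelihood test, and for Col20a1 at an unadjusted p of 0.044. These sets of libraries were defined from the counts, not by the labels, and were compared after the data were seen.

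Genes that act on collagens were read from lists of their roles, and none of 76 tested passed the adjusted threshold (edgeR quasi-likelihood test, and likewise DESeq2). The log2 fold change was above 0 for 48 of the 76 and below 0 for 28, beside 49.8% of all tested genes above 0. Of 29 tested enzymes and chaperones that modify, cleave and cross-link collagen chains, an unadjusted p under 0.05 was found for 2 that were higher and 3 that were lower, beside 4.85% and 6.26% of all tested genes. Adamts14, which removes the amino-terminal propeptide of fibrillar procollagens, was at 3.40 ± 0.338 CPM in control (SD, n = 4) and 2.70 ± 0.120 CPM in icKO (SD, n = 5), with every icKO library below every control library (adjusted p = 0.285, edgeR quasi-likelihood test). P4ha3, a prolyl hydroxylase subunit, and Pcolce2, an enhancer of procollagen cleavage, had log2 fold changes of 0.20 and 0.31. Serpinh1, the collagen chaperone HSP47, ran from 38.9 CPM in control 1 to 88.9 CPM in icKO 4, the libraries lowest and highest in Col3a1.

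Of 12 tested proteoglycans and fibril organisers, an unadjusted p under 0.05 was found for Fn1, which was higher, and Postn, which was lower. Each is 8.33% of the list, beside 4.85% of all tested genes higher and 6.26% lower at that level. Among the 12, 10 had a positive and 2 a negative log2 fold change, with a median of 0.13. Fn1, fibronectin, was at 18.3 to 26.4 CPM in control and at 82.8 CPM in icKO 3, 60.1 CPM in icKO 4 and 23.2 to 26.9 CPM in the other icKO libraries. Its log2 fold change was 0.90, with 2 of 5 icKO libraries above all others (adjusted p = 0.353, edgeR quasi-likelihood test). Postn, a matricellular protein that promotes cross-linking, was at -0.24 and Sparc, which binds procollagen, at 0.18. Of 10 tested collagen-degrading enzymes and their inhibitors, Mmp8, the neutrophil collagenase, was the one at an unadjusted p under 0.05 (10%, beside 4.85% of all tested genes higher). It was at 0.435 ± 0.150 CPM in control (SD, n = 4) and 0.794 ± 0.338 CPM in icKO (SD, n = 5). These are low levels, as 3 counts correspond to 0.102 to 0.153 CPM. The lowest adjusted p of the list was 0.361 (edgeR quasi-likelihood test). Among its 10 tested genes, 8 had a positive and 2 a negative log2 fold change, with a median of 0.078. Ctsk, a collagen-cleaving cathepsin, was at 0.31 and Mmp14, a membrane-bound collagenase, at -0.12 on the log2 scale.

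None of 10 tested collagen receptors and none of 15 laminins and other basement membrane partners had an unadjusted p under 0.05, with median log2 fold changes of 0.013 and -0.027. The lowest adjusted p among the receptors was 0.610, for Itga10, the alpha chain of an integrin of cartilage, at a log2 fold change of 0.41, and Itga2 and Itga11, further collagen-binding integrin chains, were at -0.18 and -0.15 (edgeR quasi-likelihood test). Among the basement membrane partners the laminin chains Lama1 and Lamb1 were at -0.36 and 0.09. The laminin partners summed to 610 to 721 CPM in control and 647 to 681 CPM in icKO, and thus like the type IV collagens showed group ranges that overlapped.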

How the data were processed

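Raw read counts per Ensembl gene were deposited by the authors, 1 table per library. Per the submitters' processing notes, the tools were featureCounts 1.5.0-p1, STAR 2.5.2a and bcl2fastq 2.20.0.422, with build mm10. The annotation release, the strand setting and the handling of reads with several positions were not given in the sources used here. Symbols, lengths and positions came from GENCODE M21 on GRCm38, in which all 55536 identifiers were found, and upstream sequences from RefSeq on GRCm38.p6.

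Counts of 9 libraries, grouped by title and genotype label, were tested with edgeR 4.0.16 in R 4.3.3 (filterByExpr by group with a minimum count of 10 and a total of 15, TMM scaling, quasi-likelihood test, Benjamini-Hochberg adjustment over 17258 genes), a step tested on simulated counts. CPM used TMM-scaled library sizes (factors 0.976 to 1.02), and 3 counts correspond to 0.102 to 0.153 CPM. The SE of a log2 fold change is its size over the root of the test's F. The collagens, their classes, the lists of partner and marker genes and the tests were chosen with earlier results of these data known. Values per library are given for collagens with an unadjusted p under 0.05 and for the 3 most abundant of each class, and for partner lists the 3 genes of lowest adjusted p are named. Serpinh1, Comp, Acan, Avil, Bglap, Ibsp and Matn1 were named outside that rule, after their values were seen. Alternatives covered other scalings and filters, DESeq2 1.42.0, a replicate block, Y-linked counts as a covariate and libraries left out. Some items that these rules would name are not reported here. Collagen protein sequences were not analysed here.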

Additional observations from a re-analysis of the deposited data

Results flagged for a closer look

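The 41 tested collagens and the sums of the 3 collagen classes were checked in control and in icKO, 88 groups of 4 or 5 libraries. In 6 of the 88, 1 library stood far from the others of its group by Dixon's criterion at the 95% level. Chance flags about 1 in 20 groups, and the sums hold the same genes. Of these, 5 were in control and 1 in icKO. Control 1 was low for Col4a2, at 48.5 CPM against 59.6 to 59.8 CPM in the other controls, for Col6a1, at 17.96 CPM against 36.9 to 37.9 CPM, and for Col20a1, at 1.87 CPM against 2.58 to 2.70 CPM. Control 3 was high for Col11a2, at 22.3 CPM against 7.81 to 8.71 CPM, and for Col22a1, a FACIT collagen of tissue junctions, at 3.32 CPM against 0.880 to 1.27 CPM. Library icKO 3 was high for Col18a1, at 23.1 CPM against 19.7 to 20.6 CPM in the other icKO libraries.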

How the results depend on the processing

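Col16a1 passed the threshold with size factors of DESeq2 in place of TMM, with library size alone, with no low-count filter, with a minimum of 1 CPM in 4 libraries, by DESeq2 and with Y-linked counts as a covariate. The replicate numbers did not pair the libraries (correlations of same-numbered deviations 0.103, -0.175, -0.044 and 0.170, and no icKO library correlated best with the control of its number); with the replicate block 48 genes were called, 28 higher and 20 lower, 0 collagens (Col16a1 at -0.33, adjusted p = 0.111, and Col7a1 at -0.49, adjusted p = 0.116, edgeR quasi-likelihood test), and Col4a2 was at -0.013. With no filter 393 genes were called (172 higher, 221 lower) and 2 collagens, Col16a1 and Col7a1, and by DESeq2 436 (198 higher, 238 lower) and the same 2 collagens. Leaving out 1 library gave 78 to 175 calls, 45 to 85 higher, 33 to 90 lower and 0 to 2 collagens, with Col4a2 between -0.072 and 0.034 and Col6a2 between -0.054 and 0.24. Col4a2, at 0.00023 over all libraries, was at -0.00013 with the 1 CPM filter and -0.017 with the Y-linked covariate. Chosen after seeing the data, leaving out control 3 and icKO 4 gave 57 calls (31 higher, 26 lower) and 0 collagens (Col16a1 at -0.27, adjusted p = 0.237), and leaving out control 1 and icKO 2 gave 39 lower genes, 0 collagens and Col4a2 at -0.047 (Col16a1 at -0.35, adjusted p = 0.0808, edgeR quasi-likelihood test). Class medians moved by less than the SD of class medians between single libraries of a group under every alternative run. That SD was 0.197 for fibrillar, 0.108 for basement membrane and 0.175 for other collagens. It is a wide bound, because the runs share most of their libraries, and no conclusion is drawn from it. The median log2 fold change of other collagens was 0.0055 over all libraries and 0.15 without control 3. Counts alone did not set the precision, since the SE was 0.13 for Col4a3 at 63 to 112 counts a library and 0.32 for Col1a1 at 1026 to 3491.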
